A study of Mus musculus with 12 samples.

Results

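The 10 genes described here, Csad, Cdo1, Slc6a6, Cth, Cbs, Gnmt, Mat1a, Bhmt, Ahcy and Pemt, encode enzymes and a transporter of methionine, cysteine and taurine metabolism. They were chosen by name from the 52636 genes in the count files, with earlier results of these data known, so the shares of the 10 called are descriptions. All 10 passed the filter on low counts. Their RNA was measured by RNA-seq in the livers of 12 male C57Bl/6J mice at 16 weeks of age, with 1 library per mouse. The 6 VDD-F1 mice were sons of dams fed a vitamin D deficient diet, supplemented with calcium gluconate, from before mating until delivery, and the 6 VDS-F1 mice were sons of dams fed a vitamin D sufficient diet. All dams received the sufficient diet after delivery and all sons were weaned onto it, so neither group was on a deficient diet when the liver was taken. The labels do not give the litter of a mouse, so the p-values measure the spread between these mice. The study recorded a liver weight for 7 mice, the VDD-F1 mice VDD4, VDD5 and VDD6 and the VDS-F1 mice VDS3, VDS4, VDS5 and VDS6, but not for VDD1, VDD2, VDD3, VDS1 or VDS2, and no reason is given. The diets were compared in all 12 mice and within each of these sets, and the sets were compared with the diet as a term.

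The liver is the main site of methionine breakdown. Mat1a, the hepatocyte form of methionine adenosyltransferase, makes S-adenosylmethionine, the methyl donor of most methylation reactions. Gnmt and Pemt spend its methyl group on glycine and on phosphatidylethanolamine, and Ahcy splits the product to homocysteine. Homocysteine is either returned to methionine by Bhmt, with betaine as donor, or passed on to cysteine by Cbs and then Cth. Cdo1 oxidizes cysteine, Csad decarboxylates the product on the way to taurine, and Slc6a6 carries taurine into cells. Taurine is joined to bile acids in the liver.

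The libraries held 25897868 to 36403413 fragments, of which 14275793 to 20815066 were counted on genes. The lowest count of any of the 10 genes in any mouse was 778, for Csad in VDS2. In VDS6, 11.1% of the fragments lay outside genes, against at most 4.94% in any other library. VDD2 was the lowest of the mice without a recorded liver weight for several genes below, and several results are also given without it. In bulk tissue, fewer cells of a type and less RNA per cell cannot be told apart.

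The sequences next to the starts of Csad, Cbs and Bhmt are shown because these genes differed between groups. They come from RefSeq promoter windows on GRCm38.p6, from the 250 bases before each annotated start, and are written 5′ to 3′ along the gene. The long stretches hold no annotated exon, the Csad one precedes a start inside the gene, and the short Bhmt ones lie inside Bhmt as GENCODE annotates it. Capitals mark AGGTCA, a half-site of many nuclear receptors, and CACGTG, an E-box, both searched on either strand.
Csad, chr15:102189059-102189293, minus strand: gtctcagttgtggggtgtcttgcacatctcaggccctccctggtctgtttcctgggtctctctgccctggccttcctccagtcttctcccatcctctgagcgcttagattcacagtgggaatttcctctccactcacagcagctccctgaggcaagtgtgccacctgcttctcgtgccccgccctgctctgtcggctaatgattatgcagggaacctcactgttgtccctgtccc
Cbs, chr17:31637239-31637455, minus strand: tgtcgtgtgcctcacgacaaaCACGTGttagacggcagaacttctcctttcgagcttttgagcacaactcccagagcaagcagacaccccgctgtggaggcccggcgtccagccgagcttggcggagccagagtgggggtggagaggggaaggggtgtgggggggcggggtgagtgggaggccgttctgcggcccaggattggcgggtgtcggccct
Bhmt, chr13:93637962-93638008, minus strand: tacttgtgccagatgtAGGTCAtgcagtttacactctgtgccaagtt
Bhmt, chr13:93637819-93637836, minus strand: agatcaAGGTCAgaggcc
Bhmt, chr13:93637794-93637811, minus strand: ggacaaAGGTCAgtgtgc
The Bhmt window held 3 matches to AGGTCA, in the same orientation, and the Cbs window held 1 match to CACGTG. Of 32851 windows of this length, 14.0% held AGGTCA at least once, 43 (0.131%) held it 3 or more times, and 6.02% held CACGTG. Neither of the 2 Csad windows held a match to these letters. Windows were read for 6 of the 10 genes, and those of Gnmt and Ahcy held 1 AGGTCA match each while those of Pemt held none. A match is a description of the letters, and binding was not measured.

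Per length, Gnmt had the highest level of the 10 genes and Slc6a6 the lowest. Levels between genes are given as normalised counts (CPM, scaled with the TMM factors of edgeR) per kilobase of annotated exon, and the mean over 12 mice was 1243 ± 211 (SD) for Gnmt, 737 ± 172 for Cdo1 and 693 ± 82.5 for Mat1a. Bhmt followed at 458 ± 200.5 and Ahcy at 392 ± 73.1, then Pemt at 124 ± 11.1 and Cth at 117 ± 36.9. Cbs had 67.9 ± 15.1, Csad 66.2 ± 40.2 and Slc6a6 18.6 ± 3.51. The order was clear for Gnmt over Cdo1, Ahcy over Pemt and Cth over Cbs, where all 12 mice had the first gene above the second. Neighbours that did not separate were Cdo1 and Mat1a (Cdo1 higher in 7 of 12 mice), Bhmt and Ahcy (Bhmt higher in 7), Pemt and Cth (Pemt higher in 8), and Cbs and Csad (Cbs higher in 5). With the longest transcript as the length, Cbs and Csad changed places. Csad had the largest SD in proportion to its mean.

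**Figure D1:**
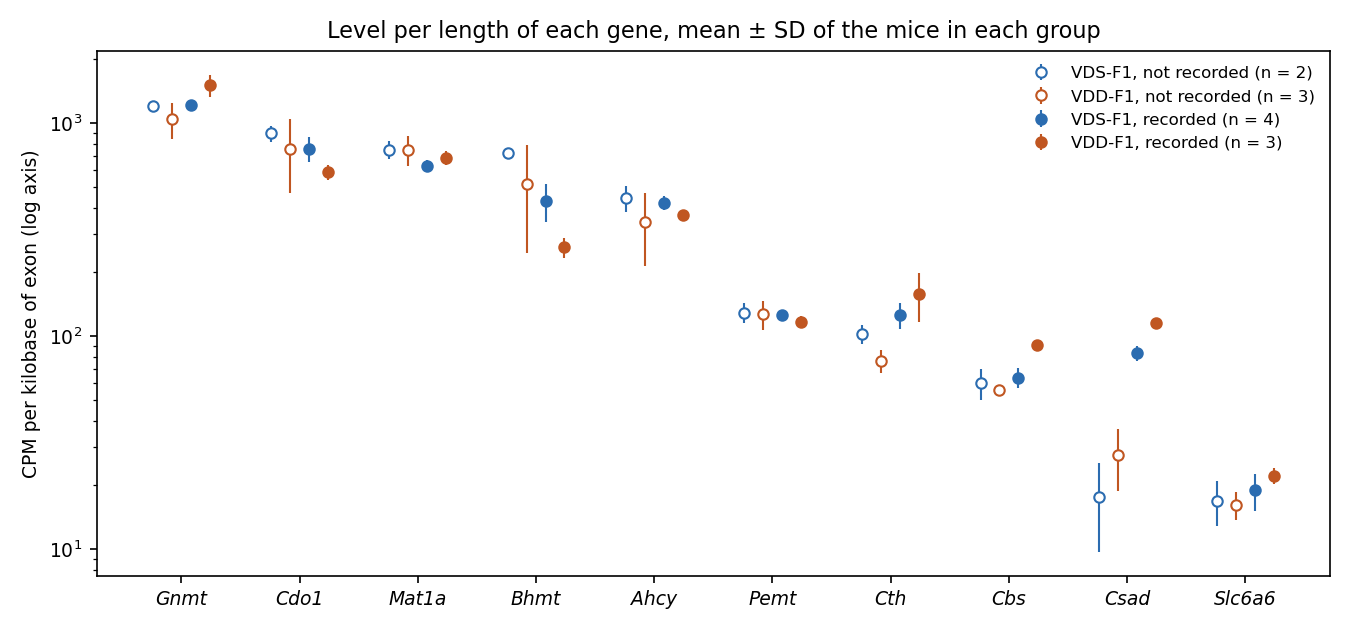
Level of each gene per kilobase of exon, in CPM on a log axis, as mean ± SD (error bars) of the mice in each of the 4 groups by diet and by liver weight recorded or not. Csad sat at 17.5 and 27.7 where no liver weight was recorded and at 83.0 and 115 where one was, and Pemt stayed between 116 and 129.

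Csad and Cth were higher in mice with a recorded liver weight than in mice without one. Csad lies on the minus strand of chromosome 15 (102176999 to 102204724 in GRCm38), and its exons overlap those of Zfp740 on the other strand, whose count was at most 391. Among mice without a recorded weight, Csad had 79.7 CPM in VDD1, 93.7 in VDD2, 145 in VDD3, 88.3 in VDS1 and 45.9 in VDS2. Among mice with one it had 409.8 in VDD4, 447 in VDD5, 461 in VDD6, 294 in VDS3, 321 in VDS4, 305 in VDS5 and 351 in VDS6. The sets did not overlap in either diet group. The means were 369.9 ± 68.9 (SD, n = 7) and 90.6 ± 35.7 CPM (SD, n = 5), and the ratio was 4.14 within VDD-F1 and 4.74 within VDS-F1. With the diet as a term, the log2 fold change was 2.14 (SE 0.18), a 4.41-fold difference, and the p adjusted over all genes by Benjamini-Hochberg was 3.12e-05 in edgeR's quasi-likelihood test. Csad had the fifth smallest p-value among 12453 genes tested, and its adjusted p stayed under 0.05 when each mouse was left out, with a log2 fold change from 1.98 to 2.29.

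Of the 10 genes, 2 were called at an adjusted p under 0.05 between the sets (both higher), against 2.46% of all genes tested (112 higher and 194 lower). Their median log2 fold change was 0.16, against -0.01 over all genes. Cth, on chromosome 3 (157894248 to 157925077, minus strand), had 206 CPM in VDD1, 241.5 in VDD2, 191 in VDD3, 307 in VDS1 and 266 in VDS2. In the mice with a recorded weight it had 424 in VDD4, 334 in VDD5, 557 in VDD6, 415 in VDS3, 353 in VDS4, 302 in VDS5 and 327 in VDS6. The sets overlapped at 1 pair of mice, VDS1 and VDS5, and within VDD-F1 they did not overlap. The log2 fold change of Cth was 0.68 (SE 0.16, adjusted p = 0.0462 in edgeR's quasi-likelihood test). This call was lost when any mouse other than VDS1 or VDS5 was left out, with an adjusted p of up to 0.107 in the same edgeR test.

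The gene with the largest difference in the other direction was Bhmt, with a log2 fold change of -0.87 (SE 0.23, adjusted p = 0.0719 in edgeR's quasi-likelihood test) for mice with against mice without a recorded weight. Bhmt lies on chromosome 13 (93616675 to 93637961, minus strand) and has an antisense neighbour, Gm15622, with at most 53 counts. Its level was 3374 CPM in VDD1, 1241 in VDD2, 4282 in VDD3, 4189 in VDS1 and 4144 in VDS2, against 1334 in VDD4, 1504 in VDD5, 1666 in VDD6, 2199 in VDS3, 2321 in VDS4, 2178.5 in VDS5 and 3234 in VDS6. VDD2 was the lowest of all 12 mice, and the other 4 mice without a recorded weight were above all 7 mice with one. Without VDD2 the log2 fold change was -1.04 with an adjusted p of 0.00129 in the same edgeR test. Bhmt was not called on leaving out any other mouse, with an adjusted p of up to 0.171 in that test. Cbs had a log2 fold change of 0.41 (SE 0.12) and an adjusted p of 0.115 in the same edgeR test. It was called only without VDS2 (adjusted p = 0.0276), and its adjusted p was up to 0.23 when another mouse was left out. For the other 6 genes the log2 fold change between the sets was 0.31 for Slc6a6, 0.29 for Gnmt, 0.03 for Ahcy, -0.08 for Pemt, -0.18 for Mat1a and -0.31 for Cdo1, with adjusted p-values of 0.289 to 0.967 in edgeR's quasi-likelihood test. DESeq2's Wald test called 4 of the 10 genes between the sets, adding Cbs and Bhmt, against 4.67% of all genes.

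**Figure D2:**
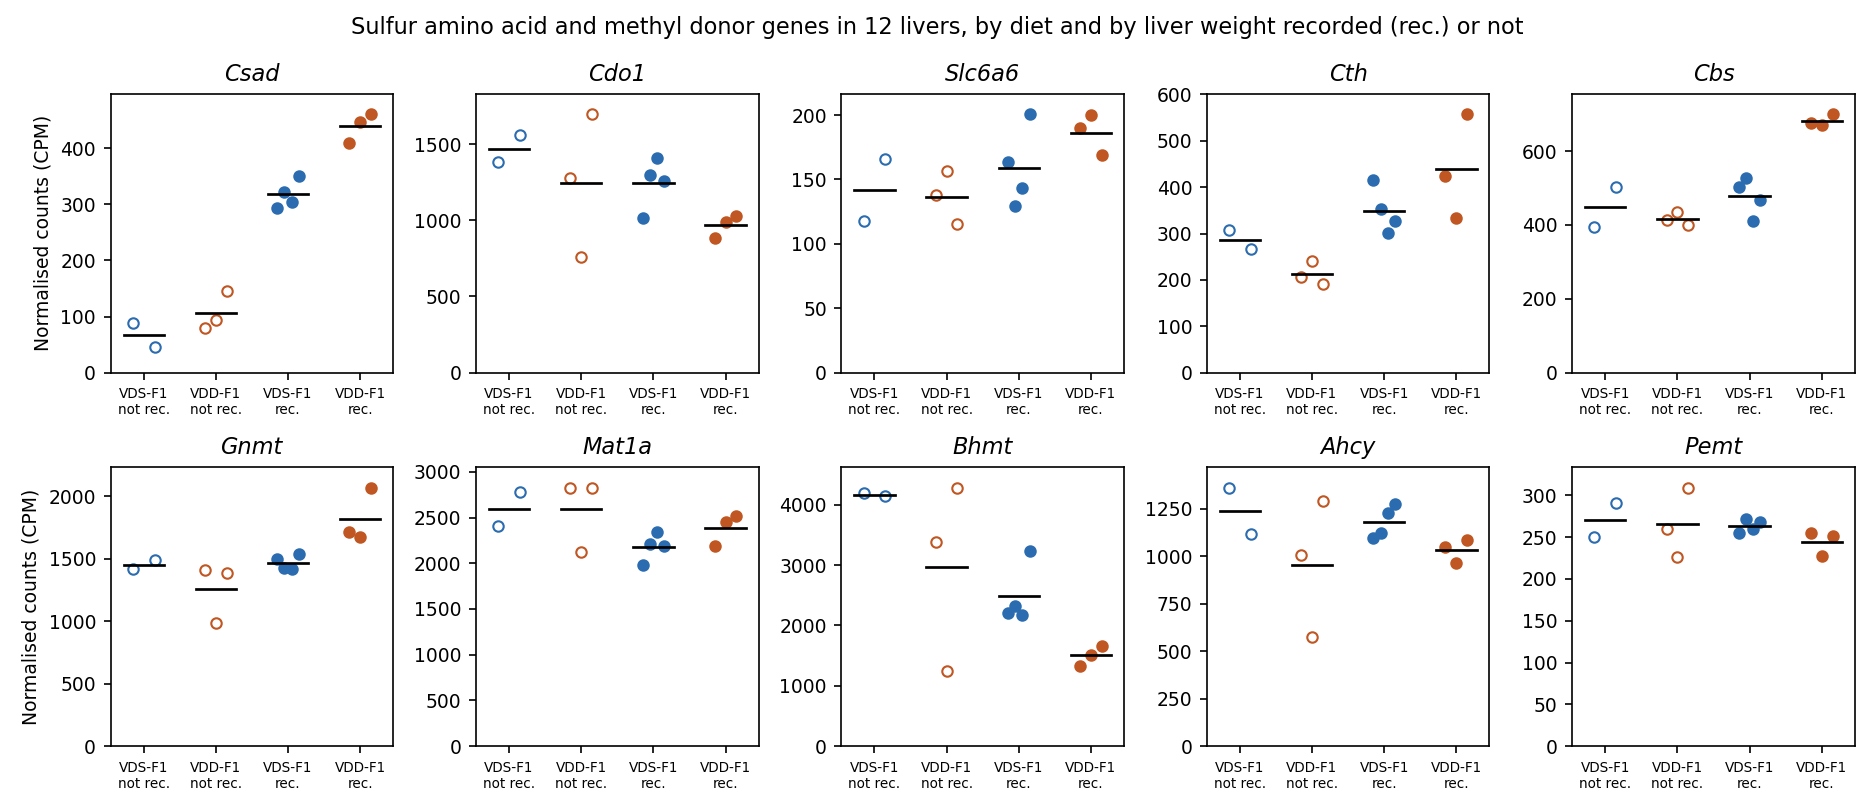
TMM-normalised counts (CPM) of the 10 genes in each mouse, with VDS-F1 in blue, VDD-F1 in orange, open points for mice without and filled points for mice with a recorded liver weight (rec.), and a line at each mean. Csad separated the sets in both diets, at 45.9 to 145 against 294 to 461 CPM, and Cbs stood apart in the 3 VDD-F1 mice with a recorded weight, at 669.7 to 699.9 CPM.

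Among the mice with a recorded liver weight, Csad and Cbs were higher and Bhmt was lower in VDD-F1 than in VDS-F1. These 3 of 10 genes were called, against 11% of all genes tested (726 higher and 632 lower of 12369), and the median log2 fold change of the 10 was 0.18, against 0.01 over all genes. Cbs, on chromosome 17 (31608894 to 31637238, minus strand), had 675 CPM in VDD4, 669.7 in VDD5 and 699.9 in VDD6, against 503 in VDS3, 528 in VDS4, 409.9 in VDS5 and 468 in VDS6. All 3 VDD-F1 mice were above all 4 VDS-F1 mice. Its log2 fold change was 0.52 (SE 0.09, adjusted p = 0.00507 in edgeR's quasi-likelihood test). The means of Csad were 439 ± 26.5 (SD, n = 3) and 318 ± 24.6 CPM (SD, n = 4), and its log2 fold change was 0.47 (SE 0.09, adjusted p = 0.00562 in the same edgeR test). The groups did not overlap for Csad either, at 409.8 to 461 against 294 to 351 CPM. Bhmt had 1501 ± 166 (SD, n = 3) and 2483 ± 505 CPM (SD, n = 4), a log2 fold change of -0.72 (SE 0.14, adjusted p = 0.00737 in the same edgeR test), with every VDD-F1 mouse below every VDS-F1 mouse. VDS6 was well above the other VDS-F1 mice for Bhmt, and without it the log2 fold change was -0.58 (adjusted p = 0.00251 in the same edgeR test). All 3 calls held when each of the 7 mice was left out, and none of the 3 genes reached a log2 fold change of 1.

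The direction of these changes is relative to the other genes of each library. The summed level of 12 hepatocyte markers was 114060 to 119080 CPM in the VDD-F1 and 91132 to 100230 CPM in the VDS-F1 mice with a recorded weight, with Alb, Ahsg, Trf and Tat higher and Apoa2 and Hnf4a lower by the same test. Alb, itself called higher, was the largest part of that sum, at 807342 to 1682776 counts per library over all mice, against at most 179396 for any other marker. Scaled to that sum, the median log2 fold change of all genes moved to -0.27, and 88.4% of the 4053 genes called (32.8% of those tested) were lower. On that scale Bhmt was at -1.01 (adjusted p = 0.00076), Csad at 0.19 (adjusted p = 0.141) and Cbs at 0.24 (adjusted p = 0.106 in edgeR's quasi-likelihood test), so the calls of Csad and Cbs were lost. Cdo1 at -0.63, Ahcy at -0.47 and Pemt at -0.38 were then called as lower, with adjusted p-values of 0.00126, 0.00334 and 0.00691 in the same edgeR test.

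For the other 7 genes the diet comparison in these mice gave no call with TMM scaling. Gnmt had 1818 ± 216 (SD, n = 3) and 1467 ± 57.9 CPM (SD, n = 4), without overlap, and a log2 fold change of 0.31 (SE 0.09, adjusted p = 0.0538 in edgeR's quasi-likelihood test). Cdo1 had 967 ± 74.7 and 1243 ± 167 CPM, with overlap, and a log2 fold change of -0.36 (SE 0.11, adjusted p = 0.0645 in the same edgeR test). Without VDS3, the lowest VDS-F1 mouse for Cdo1 in this set, its adjusted p was 0.0183 in the same edgeR test. Cdo1 was not called on leaving out any other mouse, with an adjusted p of up to 0.2 in that test. DESeq2's Wald test called 5 of the 10 genes, adding Gnmt and Cdo1, against 13.8% of all genes. The log2 fold change was 0.33 (SE 0.16) for Cth, 0.23 (SE 0.13) for Slc6a6, 0.13 (SE 0.09) for Mat1a, -0.11 (SE 0.08) for Pemt and -0.19 (SE 0.09) for Ahcy. Of these, Ahcy was lower in each VDD-F1 mouse (966 to 1086 CPM) than in any VDS-F1 mouse (1098 to 1275 CPM), and the ranges of the other 4 overlapped. The share of all genes whose ranges did not overlap was not counted, here or between the sets.

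**Figure D3:**
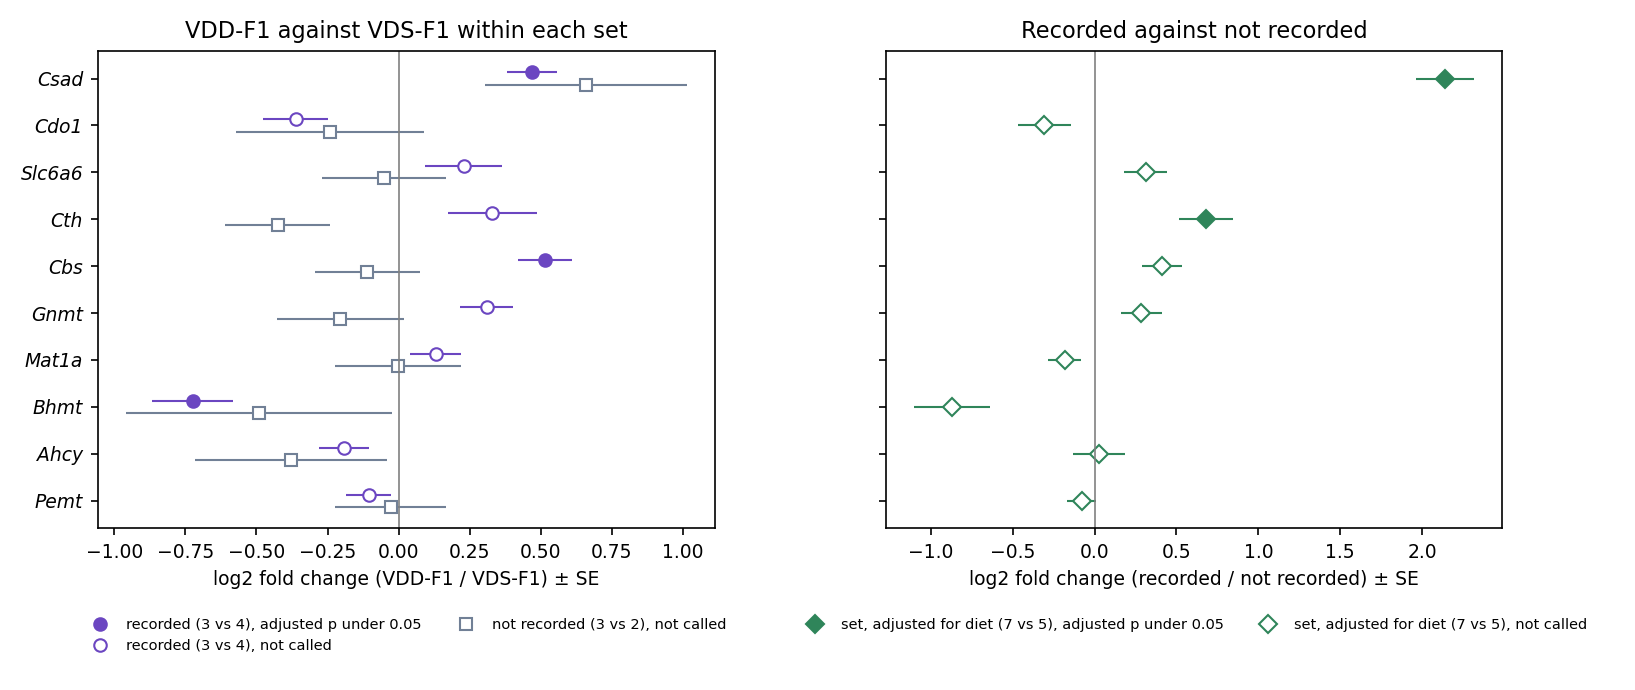
Log2 fold change ± SE of each gene, at left between the diets within the mice with (circles, 3 against 4) and without (squares, 3 against 2) a recorded liver weight, and at right between the sets with the diet as a term (7 against 5). Filled points mark an adjusted p under 0.05, which were Csad, Cbs and Bhmt at left and Csad and Cth at right.

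The ratio of 2 genes within a library does not depend on how libraries are scaled. Csad over Cdo1, the later over the earlier step from cysteine to taurine, was 0.449 to 0.464 in the VDD-F1 and 0.217 to 0.291 in the VDS-F1 mice with a recorded weight. In the mice without one it was 0.0623 to 0.124 in VDD-F1 and 0.0294 to 0.0640 in VDS-F1. The sets did not overlap in this ratio of raw counts. Cbs over Bhmt, the 2 enzymes that compete for homocysteine, was 0.420 to 0.506 in the VDD-F1 and 0.145 to 0.229 in the VDS-F1 mice with a recorded weight. In the mice without one it was 0.0933 in VDD3, 0.122 in VDD1 and 0.351 in VDD2, against 0.0944 and 0.121 in VDS1 and VDS2. VDD2 alone of that set lay above every VDS-F1 mouse. Csad over Slc6a6 was 2.16 to 2.73 in the VDD-F1 and 1.75 to 2.49 in the VDS-F1 mice with a recorded weight, which overlapped, and 0.277 to 1.26 in the mice without one. Cth over Bhmt was 0.222 to 0.335 in the VDD-F1 and 0.101 to 0.189 in the VDS-F1 mice with a recorded weight, and 0.0446 to 0.195 in the mice without one. These 4 ratios were not tested, and as ratios of raw counts they are not levels per length. Each holds Csad, Cbs or Bhmt, already called in the mice with a recorded weight, so it is no separate support for those calls.

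**Figure D4:**
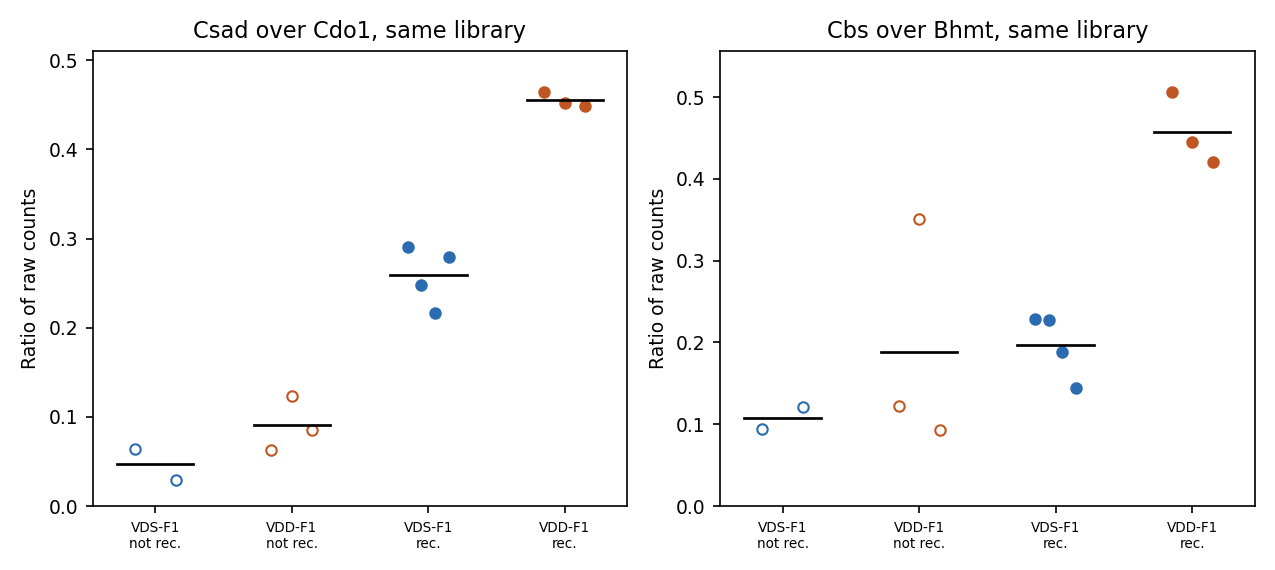
Ratio of raw counts of Csad over Cdo1 (left) and of Cbs over Bhmt (right) in each library, by diet and by liver weight recorded (rec., filled) or not (open), with a line at each mean. The 3 VDD-F1 mice with a recorded weight were highest in both, at 0.449 to 0.464 and 0.420 to 0.506.

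In all 12 mice together, none of the 10 genes was called between the diets. edgeR's quasi-likelihood test called 0 of 10, against 0.0402% of all genes tested (5 of 12453), and gave 0 of 10 with an unadjusted p under 0.05, against 15.8% of all genes. DESeq2's Wald test and voom with sample quality weights in limma also called 0 of 10, against 4.05% (504) and 4.74% (590) of all genes. The log2 fold changes ran from -0.45 (SE 0.32) for Bhmt to 0.23 (SE 0.16) for Cbs, and Csad had 0.22 (SE 0.53). Each diet group held mice of both sets, and Csad ranged from 79.7 to 461 CPM in VDD-F1 and from 45.9 to 351 in VDS-F1. The median log2 fold change of the 10 genes was 0.03, against 0.00 over all genes. Cdo1 had a log2 fold change of -0.25 (SE 0.18) and Ahcy of -0.27 (SE 0.15), and the other 5 genes lay between -0.06 and 0.10. Without VDD2 the log2 fold change was -0.17 for Cdo1, -0.15 for Ahcy and -0.32 for Bhmt.

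Among the mice without a recorded liver weight, none of the 10 genes was called between the diets either. This comparison of 3 with 2 mice called 0 of 12541 genes (a percentage of 0) by edgeR's quasi-likelihood test, with 473 at an unadjusted p under 0.05, and DESeq2's Wald test called 34 (0.271%), none of them among the 10. None of the 10 had an unadjusted p under 0.05, against 3.77% of all genes, and their median log2 fold change was -0.16, against 0.01 over all genes. Csad had 106 ± 34.4 (SD, n = 3) and 67.1 ± 30.0 CPM (SD, n = 2), a log2 fold change of 0.66 (SE 0.35). The sign was positive for Csad and negative for the other 9 genes, with Mat1a at -0.00 (SE 0.22), Bhmt at -0.49 (SE 0.47), Cth at -0.43 (SE 0.19) and Ahcy at -0.38 (SE 0.34). VDD2 was the lowest mouse of this set for Bhmt (1241 CPM), Ahcy (573 CPM), Cdo1 (757 CPM), Gnmt (982 CPM), Mat1a (2123 CPM) and Pemt (226 CPM). Without it, the log2 fold change was -0.13 for Bhmt, -0.12 for Ahcy, 0.01 for Cdo1, -0.06 for Gnmt, 0.12 for Mat1a and 0.07 for Pemt. VDD2 had the highest marker sums of the 12 mice for stellate cells and fibroblasts (937 CPM), cholangiocytes (116 CPM) and lymphocytes (10.8 CPM), and their part in its low values was not tested.

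Whether the diet difference itself differed between the sets was tested by the interaction term. It was called for 0 of the 10 genes by edgeR's quasi-likelihood test, against 0.0883% of all genes (11 of 12453), and for 0 of the 10 by DESeq2's Wald test, against 1.11% of all genes (138). An unadjusted p under 0.05 was reached by 3 of the 10, against 9.01% of all genes. The interaction was 0.63 on the log2 scale (SE 0.18) for Cbs, with an unadjusted p of 0.00434 and an adjusted p of 0.290 in edgeR's quasi-likelihood test. It was 0.76 (SE 0.26) for Cth and 0.52 (SE 0.21) for Gnmt, with adjusted p-values of 0.390 and 0.502 in the same edgeR test. Without VDD2, 332 of all genes and 0 of the 10 were called, and the adjusted p was 0.062 for Cbs and 0.0838 for Cth in the same edgeR test. For these 3 genes VDD-F1 was above VDS-F1 on average in the mice with a recorded weight and below it in the mice without one. For Csad the interaction was -0.19 (SE 0.34), and it was higher in VDD-F1 on average in both sets.

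The other genes of the pathway were counted in 4 lists. Of 13 tested genes of cysteine, sulfide and glutathione metabolism, 3 were higher and 0 lower between the sets, against 2.46% of all genes called in either direction (median log2 fold change 0.14, against -0.01 over all genes). Ethe1, which oxidizes sulfide-derived persulfide, had 48.8 to 79.6 CPM in the mice without and 76.6 to 129.9 CPM in the mice with a recorded weight, a log2 fold change of 0.66 (SE 0.15, adjusted p = 0.0343 in edgeR's quasi-likelihood test). Suox, which oxidizes sulfite to sulfate, had 91.1 to 139 and 142 to 186 CPM without overlap, a log2 fold change of 0.47 (SE 0.11, adjusted p = 0.0392 in the same edgeR test). Papss2, which activates sulfate and was named after its values were seen, had a log2 fold change of 0.50 (SE 0.12, adjusted p = 0.0467 in the same edgeR test). Each of these calls was lost when one of several mice was left out (8 of 12 for Ethe1, and 9 of 12 for Suox and for Papss2), with adjusted p-values up to 0.133. That of Papss2 was also lost under 3 other alternatives, with an adjusted p of 0.113 under hepatocyte marker scaling in the same edgeR test. Of 9 genes of polyamine synthesis and methionine salvage, 1 was higher and 0 lower (median 0.24). That gene was Sms, spermine synthase, with 2.02 to 2.98 CPM without and 3.28 to 5.05 CPM with a recorded weight, a log2 fold change of 0.74 (SE 0.16, adjusted p = 0.0287 in the same edgeR test), lost on leaving out 8 of 12 mice. None of the 15 other methyl donor genes or the 14 folate and remethylation genes was called between the sets, with 7 and 3 at an unadjusted p under 0.05, against 13.9% of all genes. By the Wald test of DESeq2, against 4.67% of all genes, 2 methyl donor genes (Chdh and Aldh7a1), 4 cysteine, sulfide and glutathione genes (adding Gclm) and 2 polyamine and salvage genes (adding Odc1) were higher, and 0 folate genes were called. Mtr and Bhmt2, the other enzymes that remethylate homocysteine, had log2 fold changes of -0.34 (SE 0.11, adjusted p = 0.156) and -0.34 (SE 0.13, adjusted p = 0.250 in edgeR's quasi-likelihood test).

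Between the diets in the mice with a recorded weight, 2 of the 15 other methyl donor genes were higher and 2 lower, against 11% of all genes called in either direction, and their median log2 fold change was -0.14, against 0.01 over all genes. With the Wald test of DESeq2, 2 of them were higher and 3 lower, adding Ahcyl2, against 13.8% of all genes. Nnmt, which methylates nicotinamide, had 102 to 160.2 CPM in VDD-F1 and 37.6 to 57.9 in VDS-F1, a log2 fold change of 1.33 (SE 0.18, adjusted p = 0.000766 in edgeR's quasi-likelihood test). Chka, choline kinase, had 73.9 to 92.3 and 18.7 to 57.8 CPM, a log2 fold change of 1.21 (SE 0.27, adjusted p = 0.0135), with adjusted p-values of 0.0558 without VDD4 and 0.0562 without VDD5 in the same edgeR test. Dmgdh, which breaks down the dimethylglycine that Bhmt releases, was lower, at 321 to 367 against 490.3 to 510.4 CPM, a log2 fold change of -0.56 (SE 0.08, adjusted p = 0.00124 in the same edgeR test). Gamt, which uses S-adenosylmethionine to make creatine, had a log2 fold change of -0.39 (SE 0.11, adjusted p = 0.0447), lost on leaving out any of 5 of the 7 mice (VDD4, VDD5, VDS4, VDS5 or VDS6). Mat2a, the methionine adenosyltransferase of other tissues, had a log2 fold change of -0.39 (SE 0.15, adjusted p = 0.121 in edgeR's quasi-likelihood test).

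Of the 14 folate and remethylation genes, Mthfd1l passed the filter on low counts only through VDD-F1, where it is high, so its call is not counted. Mthfd1l, a mitochondrial formate-producing enzyme, had 108 to 114 raw counts in the 3 VDD-F1 mice and 1 to 16 in the 4 VDS-F1 mice (means of 111 and 8.5). In the other set it had 126 counts in VDD2 and 11 to 14 in the other 4 mice. Of the other 13 genes of the list, 1 was higher and 1 lower. Mthfd2, another mitochondrial folate enzyme, had 36 to 43 counts against 3 to 20, a log2 fold change of 1.52 (SE 0.42, adjusted p = 0.0388 in edgeR's quasi-likelihood test), lost on leaving out any of 5 mice (VDD4 to VDD6, VDS3 or VDS5). Shmt2, which moves a carbon from serine to folate in mitochondria, was lower, at 196 to 213 against 267 to 332 CPM, a log2 fold change of -0.53 (SE 0.09, adjusted p = 0.00356 in the same edgeR test). Of the 13 cysteine, sulfide and glutathione genes, 1 was higher and 1 lower (median -0.03), a share near the 11% of all genes, and DESeq2 called 1 higher and 2 lower, adding Tst. Got1, an aspartate aminotransferase that also acts on cysteine sulfinate, had a log2 fold change of 0.83 (SE 0.14, adjusted p = 0.0026), at 371 to 517 against 214 to 294 CPM. Fmo1, which oxidizes hypotaurine to taurine, had a log2 fold change of -0.45 (SE 0.09, adjusted p = 0.00761 in edgeR's quasi-likelihood test), at 119 to 137 against 167 to 195 CPM. Gclc, which starts glutathione synthesis, and Baat, which joins taurine to bile acids, had log2 fold changes of 0.32 (SE 0.13, adjusted p = 0.135) and -0.20 (SE 0.08, adjusted p = 0.168 in the same edgeR test). None of the 9 polyamine and salvage genes was called by edgeR's or by DESeq2's test, with 1 at an unadjusted p under 0.05, against 25.6% of all genes. In the other 3 comparisons edgeR's test called none of these lists' genes, and DESeq2's Wald test called 2 between the diets in 12 mice (Ahcyl2 and Got1, with Mthfd1l not counted) and 2 in the interaction (Nnmt and Chka), against 4.05% and 1.11% of all genes.

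**Figure D5:**
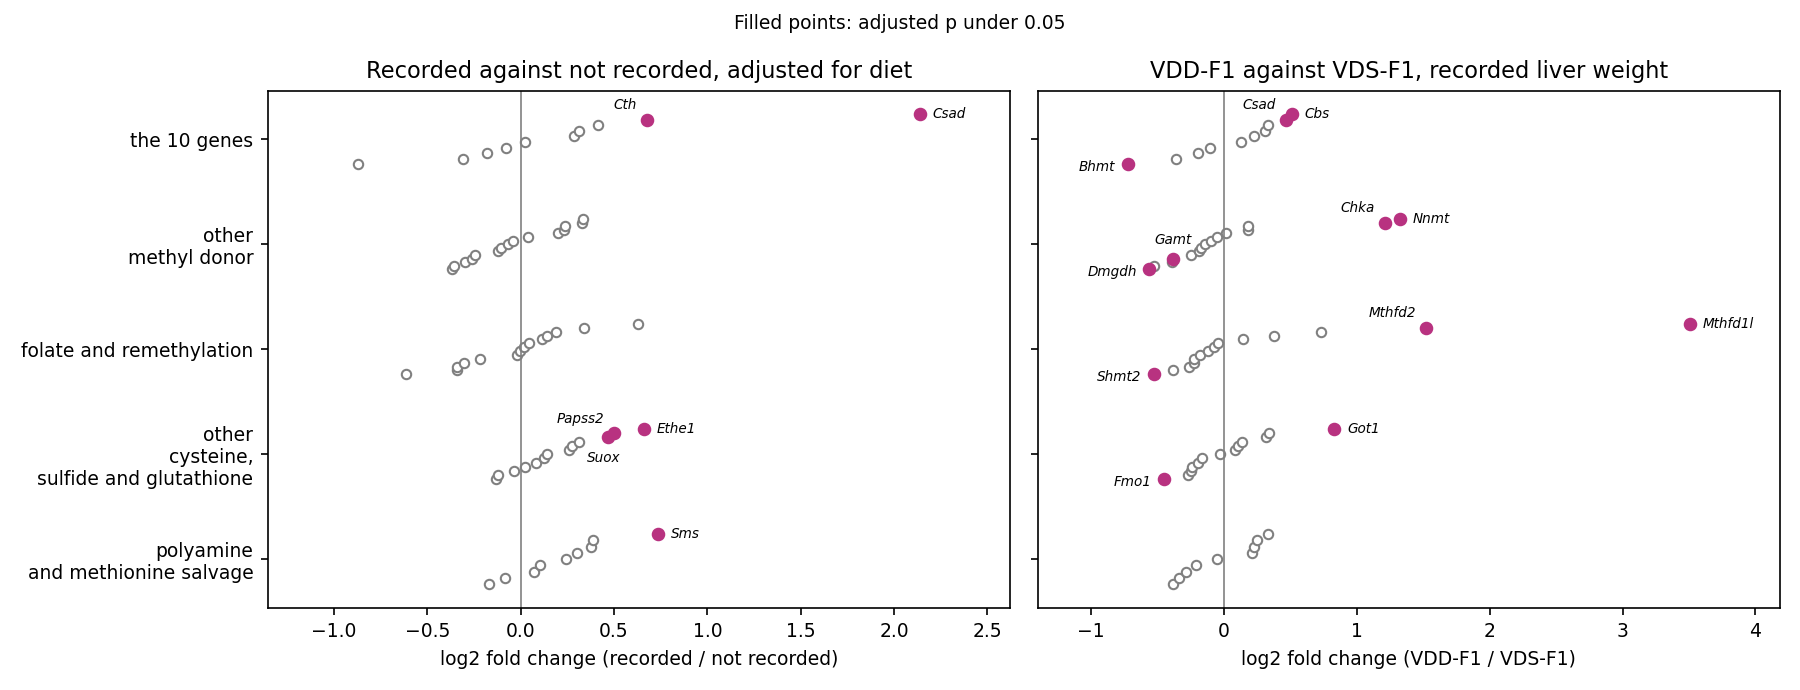
Log2 fold change of each tested gene of the 10 and of the 4 other lists, at left between the sets (recorded minus not recorded liver weight) and at right between the diets in the mice with one. Filled, named points have an adjusted p under 0.05. At left Csad stood alone at 2.14, and the point farthest right at right, Mthfd1l, passed the filter on low counts only through VDD-F1.

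Between the sets, no marker gene of hepatocytes, endothelial cells, stellate cells and fibroblasts, macrophages, lymphocytes or cholangiocytes was called by edgeR's quasi-likelihood test, and the summed levels of each list overlapped. An unadjusted p under 0.05 was reached by 3 hepatocyte, 3 endothelial and 1 macrophage markers, against 13.9% of all genes, and DESeq2's Wald test called 1 hepatocyte marker (Apoa1, lower) and 1 endothelial marker (Kdr, higher). The hepatocyte markers (12 of 12 tested) summed to 91132 to 119080 CPM in the mice with and 103610 to 121670 CPM in the mice without a recorded weight, and Csad differed as much when scaled to this sum (2.20 on the log2 scale, adjusted p = 1.23e-05 in the same edgeR test). Between the diets in the mice with a recorded weight, where 11% of all genes were called, 4 of 8 stellate and fibroblast markers were higher (Dcn, Col1a1, Col3a1 and Pdgfrb), and their sum was 499.5 to 604 CPM in VDD-F1 and 305 to 378 CPM in VDS-F1. Of 8 macrophage markers, 4 were lower (Clec4f, Csf1r, Cd163 and Timd4), at sums of 107 to 147 and 172 to 226 CPM, and 1 was higher at an unadjusted p under 0.05. The Wald test of DESeq2 called the same numbers of markers in each list, except that it also called 1 macrophage marker, Marco, as higher. Epcam and Spp1, 2 of 5 tested cholangiocyte markers, were higher, at list sums of 58.2 to 72.4 and 27.8 to 44.2 CPM, and Stab2 was the 1 of 8 endothelial markers that was lower. Only 2 of 8 lymphocyte markers passed the filter, 6 of the 8 were at 0 in at least 1 library, as was the cholangiocyte gene Cftr, and no marker of the other lists was at 0. In the mice with a recorded weight, Cd79a (lymphocyte) and Krt7 (cholangiocyte) passed the filter only through VDD-F1, and neither was called. Their mean counts were 20.67 in VDD-F1 against 7.5 in VDS-F1, and 19.67 against 11.25. The part of these cells in the differences of Csad, Cbs and Bhmt between the diets was not tested.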

How the data were processed

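RNA from the left lateral lobe of 12 livers was depleted of ribosomal RNA, made into stranded libraries and sequenced. Adapters and low-quality reads were removed, STAR mapped the rest to mm10 (GRCm38), and the authors deposited raw counts per gene. The reverse-strand count was used, which held 92.7% to 95.8% of stranded counts. Gene names and lengths came from GENCODE M21 (the study names M15), which held 52403 of the 52636 genes. Genes averaging 12 or more counts were tested with edgeR 4.0.16 in R 4.3.3 (TMM, quasi-likelihood F test in the legacy form, Benjamini-Hochberg adjustment over all genes). A call is an adjusted p under 0.05, a CPM is a count scaled to the TMM-adjusted total of its library, and an SE is the log2 fold change over the root of F. The paper's methods name DESeq2, which was run (1.42.0) as an alternative.

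The set of each mouse comes from the paper's record of liver weights, not from the sample labels. The 10 genes and the lists were chosen with earlier results of these data known. All 10 were named, and of each other list at most the 4 called genes with the smallest adjusted p, with Mat2a, Bhmt2, Mtr, Gclc and Baat in any case. Alternatives were DESeq2's size factors and Wald test, a total count of at least 12, the count that ignores the strand, scaling to hepatocyte markers, each mouse left out, the longest transcript as length and, in all 12 mice, upper quartile scaling, the newer fit, limma 3.58.1's voom with a quality weight per library, a replicate block and the set as a covariate. The edgeR fits were tested on simulated data. Python 3.11.15, pandas 2.3.3, NumPy 2.4.6 and matplotlib 3.10.9 were used.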

Additional observations from a re-analysis of the deposited data

Results flagged for a closer look

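For Bhmt, VDS6 had 3234 CPM among the 4 VDS-F1 mice with a recorded liver weight, and the other 3 lay between 2179 and 2321 CPM. The gap to the nearest mouse was 0.865 of the whole range, above Dixon's 95% critical value for 4 samples. Chance alone passes that value in about 1 of 20 groups, and this was the 1 such value among 81 groups looked at. VDS6 also had the largest share of fragments outside genes, 11.1%, and the part of this in its Bhmt level was not tested.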

How the results depend on the processing

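Of the 10 genes, none was called between the diets in all 12 mice or in the 5 mice without a recorded weight, or in the interaction, under any alternative. Over all genes the number called between the diets in 12 mice was 504 with DESeq2's Wald test, 590 with voom and sample quality weights, 84 with hepatocyte marker scaling (median log2 fold change of all genes -0.16), 20 with the newer fit, 28 with the set as a covariate and 19 with the replicate block, against 5. Same-numbered mice correlated at -0.08 to 0.10 in their deviations from the group means, none best with its own number, so the replicate numbers do not pair the mice. Between the sets, DESeq2's Wald test called 581 genes and 4 of the 10, and hepatocyte marker scaling 189 genes. In the mice with a recorded weight, DESeq2's Wald test called 5 of the 10, and hepatocyte marker scaling called 4053 genes. DESeq2's Wald test called 34 genes in the mice without one and 138 in the interaction, where hepatocyte marker scaling called 21. On leaving out each mouse, the number of all genes called ran from 0 (VDD4, VDD5, VDD6, VDS3, VDS4 or VDS5 left out) to 420 (VDD1) between the diets, from 143 (VDD6) to 498 (VDD2) between the sets, from 819 (VDD5) to 1598 (VDS6) with and from 0 to 25 (VDD2) without a recorded weight, and from 3 (VDD5) to 332 (VDD2) for the interaction. Of the 10 genes, 1 to 2 were then called between the sets and 3 to 4 in the mice with a recorded weight.

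Reversed signs were all in genes that were not called. With hepatocyte marker scaling the diet difference in 12 mice was -0.026 for Csad, -0.10 for Slc6a6, -0.11 for Gnmt and -0.056 for Mat1a, that in the mice with a recorded weight was -0.054 for Slc6a6 and -0.14 for Mat1a, and the interaction (median of all genes -0.30) was -0.026 for Slc6a6, -0.15 for Mat1a and -0.084 for Ahcy. Cth in 12 mice was at 0.0199, 0.0178 and 0.0156 with upper quartile scaling, voom and the set as a covariate. Mat1a in the mice without a recorded weight was at 0.0044 with both DESeq2 alternatives, 0.0020 without strand and 0.0080 with hepatocyte marker scaling. On leaving out each mouse, the diet difference in 12 mice ran from -0.23 to 0.099 for Cth and from -0.029 to 0.17 for Gnmt, and the set difference of Ahcy from -0.11 to 0.14. In the mice without a recorded weight it ran from -0.52 to 0.013 for Cdo1, from -0.26 to 0.21 for Slc6a6, from -0.26 to 0.076 for Cbs, from -0.088 to 0.12 for Mat1a and from -0.14 to 0.083 for Pemt. The interaction ran from -0.74 to 0.20 for Csad, from -0.38 to 0.15 for Cdo1, from -0.60 to 0.11 for Bhmt, from -0.078 to 0.44 for Ahcy and from -0.19 to 0.024 for Pemt. Without VDS1 or VDS2 the lone VDS-F1 mouse of that set was assumed to vary like the other mice.

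With the longest transcript as length, the levels per kilobase were 666 for Bhmt, 259.8 for Pemt, 180.1 for Cth, 111 for Csad and 25.4 for Slc6a6. With all mice kept, the log2 fold changes of the 10 genes kept their direction and their side of the threshold in 275 values, reversed in 16, gained a call in 7 and lost it in 2. Both the 2 to 7 mice in a group and the depth limit the precision.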
